A study of Mus musculus with 9 samples.

Results

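The CHD (chromodomain helicase DNA-binding) genes Chd1 to Chd9 encode ATP-driven chromatin remodellers, and all 9 were found by symbol among 45361 identifiers of the count table. All 9 also passed the filter on low counts, which kept 12580 genes for testing. The family was selected on the Chd5 values of these same libraries, which were lower with both inhibitors. The Chd5 levels, against DMSO and between the inhibitors, are therefore a description and carry no test. The other 8 genes came in as the rest of the family, and their calls are those of the fit over all genes. RNA was sequenced from CH12F3, a mouse B-lymphoma line that switches from IgM to IgA in culture. Every library came from cells with a Ligase4 KO genotype, which lack the ligase of classical end joining, after 24 h of stimulation with TGF-β, IL-4 and anti-CD40. The groups were valemetostat (3 libraries), an inhibitor of the H3K27 methyltransferases EZH1 and EZH2, tazemetostat (3 libraries), an inhibitor of EZH2, and DMSO (3 libraries). All libraries are of the same line. The sources used here give no dose, no duration of inhibitor exposure and no number of knockout clones.

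CHD proteins carry a pair of chromodomains, which read histone tails, before a SNF2-type ATPase that slides, spaces or evicts nucleosomes. They fall into a subfamily of Chd1 and Chd2, a subfamily of Chd3, Chd4 and Chd5, which serve as alternative ATPases of the NuRD complex (nucleosome remodelling joined to histone deacetylation), and a subfamily of Chd6 to Chd9. In lymphocytes Chd4 is the NuRD ATPase known to work with Ikaros-family factors. Chd5 is known mainly from neurons and spermatids and as a tumour suppressor in human neuroblastoma.

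Library totals ran from 34080504 to 46675110 counts, and 3 counts equal 0.0633 to 0.087 CPM. CPM are counts per library size, in what follows with TMM factors. All 9 B cell markers listed were detected. Their summed levels were 3069 to 3180 TPM (a level per transcript length, from the deposited table) with valemetostat, 2954 to 3025 TPM with tazemetostat and 2642 to 2881 TPM in DMSO. Most of each sum was Ighm, which averaged 2005, 1927 and 1768 TPM in these groups. Of the 9, 4 were called higher with valemetostat and 5 with tazemetostat, with 0 lower, against 20.5% and 19.9% of all tested genes called higher. Of 6 T cell markers 1 had 0 counts in all libraries, and their sum was 1.28 to 8.43 TPM with valemetostat, 1.11 to 1.72 TPM with tazemetostat and 0.91 to 5.18 TPM in DMSO. The upper ends rest on Cd3d, which reached 7.11 TPM with valemetostat and 4.76 TPM in DMSO but 0.5 TPM with tazemetostat. Its counts did not show this, with 24 in all with valemetostat, 41 with tazemetostat and 31 in DMSO. The 6 myeloid markers summed to 12.94 to 14.5 TPM with valemetostat, 12.98 to 13.63 TPM with tazemetostat and 12.2 to 16.2 TPM in DMSO. These sums hid opposite changes, since of 4 tested myeloid markers Lyz2 and Adgre1 were called higher and Csf1r lower with both inhibitors. Lyz2 had 145 counts in all with valemetostat, 167 with tazemetostat and 3 in DMSO. Adgre1 averaged 7.03 ± 0.614 CPM with valemetostat, 8.25 ± 0.695 CPM with tazemetostat and 2.80 ± 0.197 CPM in DMSO, and Csf1r averaged 20.9 ± 2.09, 21.6 ± 1.58 and 28.7 ± 1.48 CPM in valemetostat, tazemetostat and DMSO libraries (SD, n = 3 each). The part of such markers in the CHD values was not tested. Nothing in the labels shows replicates to be separate cultures, so p-values measure the spread between these libraries. In bulk RNA, a lower level in every cell cannot be told apart from fewer expressing cells.

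In level per length, Chd4 led the family in every group, at 118 ± 0.516 TPM with valemetostat, 128 ± 7.94 TPM with tazemetostat and 142 ± 12.1 TPM in DMSO (SD, n = 3 each). It supplied 38.3 to 40.6% of the summed CHD TPM across the 9 libraries. In DMSO the order below it was Chd8 at 58.1 ± 3.36 TPM, Chd3 at 47.1 ± 5.85 TPM, Chd1 at 44.0 ± 4.09 TPM, Chd7 at 28.9 ± 4.44 TPM, Chd2 at 16.9 ± 0.702 TPM, Chd9 at 15.1 ± 2.24 TPM, Chd6 at 14.5 ± 2.80 TPM and Chd5 at 0.913 ± 0.150 TPM (SD, n = 3 each). The library ranges of Chd3 and Chd1 overlapped there, as did those of Chd2, Chd9 and Chd6. With valemetostat and tazemetostat Chd3 stood at 46.7 ± 4.04 and 51.7 ± 2.65 TPM, against 39.2 ± 0.923 and 39.9 ± 5.04 TPM for Chd8, so Chd3 had the second highest mean in both inhibitor groups. Its libraries did not overlap those of Chd8 in either group, but with valemetostat its range of 42.41 to 50.41 TPM overlapped that of Chd1, at 34.26 to 43.32 TPM. Chd1 stood at 38.6 ± 4.54 TPM with valemetostat and 38.8 ± 2.26 TPM with tazemetostat, where its libraries overlapped those of Chd8. Chd7 followed at 23.9 ± 1.04 and 23.6 ± 3.87 TPM. Chd9 at 12.6 ± 0.905 and 13.9 ± 1.14 TPM, Chd2 at 11.8 ± 1.74 and 12.0 ± 1.96 TPM and Chd6 at 10.5 ± 1.40 and 11.2 ± 0.545 TPM again overlapped in part. The summed level of the 9 genes was 302, 296 and 307 TPM with valemetostat, 322, 341 and 296 TPM with tazemetostat and 374, 391 and 338 TPM in DMSO. All valemetostat sums lay under all DMSO sums, whereas 1 tazemetostat sum lay above the lowest DMSO sum.

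Against DMSO, most CHD genes were modestly lower with either inhibitor, Chd3 was higher, and Chd5 showed the largest difference of the family. With valemetostat 7 of the 8 members other than Chd5 fell and Chd3 rose, with log2 fold changes from -0.56 to 0.25 and a median of -0.35. With tazemetostat 6 of the 8 fell, Chd3 rose and Chd4 did not pass the test, with log2 fold changes from -0.42 to 0.33 and a median of -0.29. Over all tested genes 18.7% were called lower and 20.5% higher with valemetostat (39.2% in either direction), and 18.2% lower and 19.9% higher with tazemetostat (38.1% in either direction), and the medians were 0.01 and 0.00. The valemetostat and DMSO libraries did not overlap for all 8 of these members, against 23.7% of tested genes not overlapping on the lower side and 24.8% on the higher side. For tazemetostat and DMSO the same held for 7 of 8, against 23.3% and 24.1%. Every member has a longest transcript of at least 6697 nt. Among the 1200 tested genes that long, 47.4% were called lower with valemetostat and 41.2% with tazemetostat. Overlap between groups was not counted among these long genes. Both comparisons use the same 3 DMSO libraries.

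**Figure D1:**
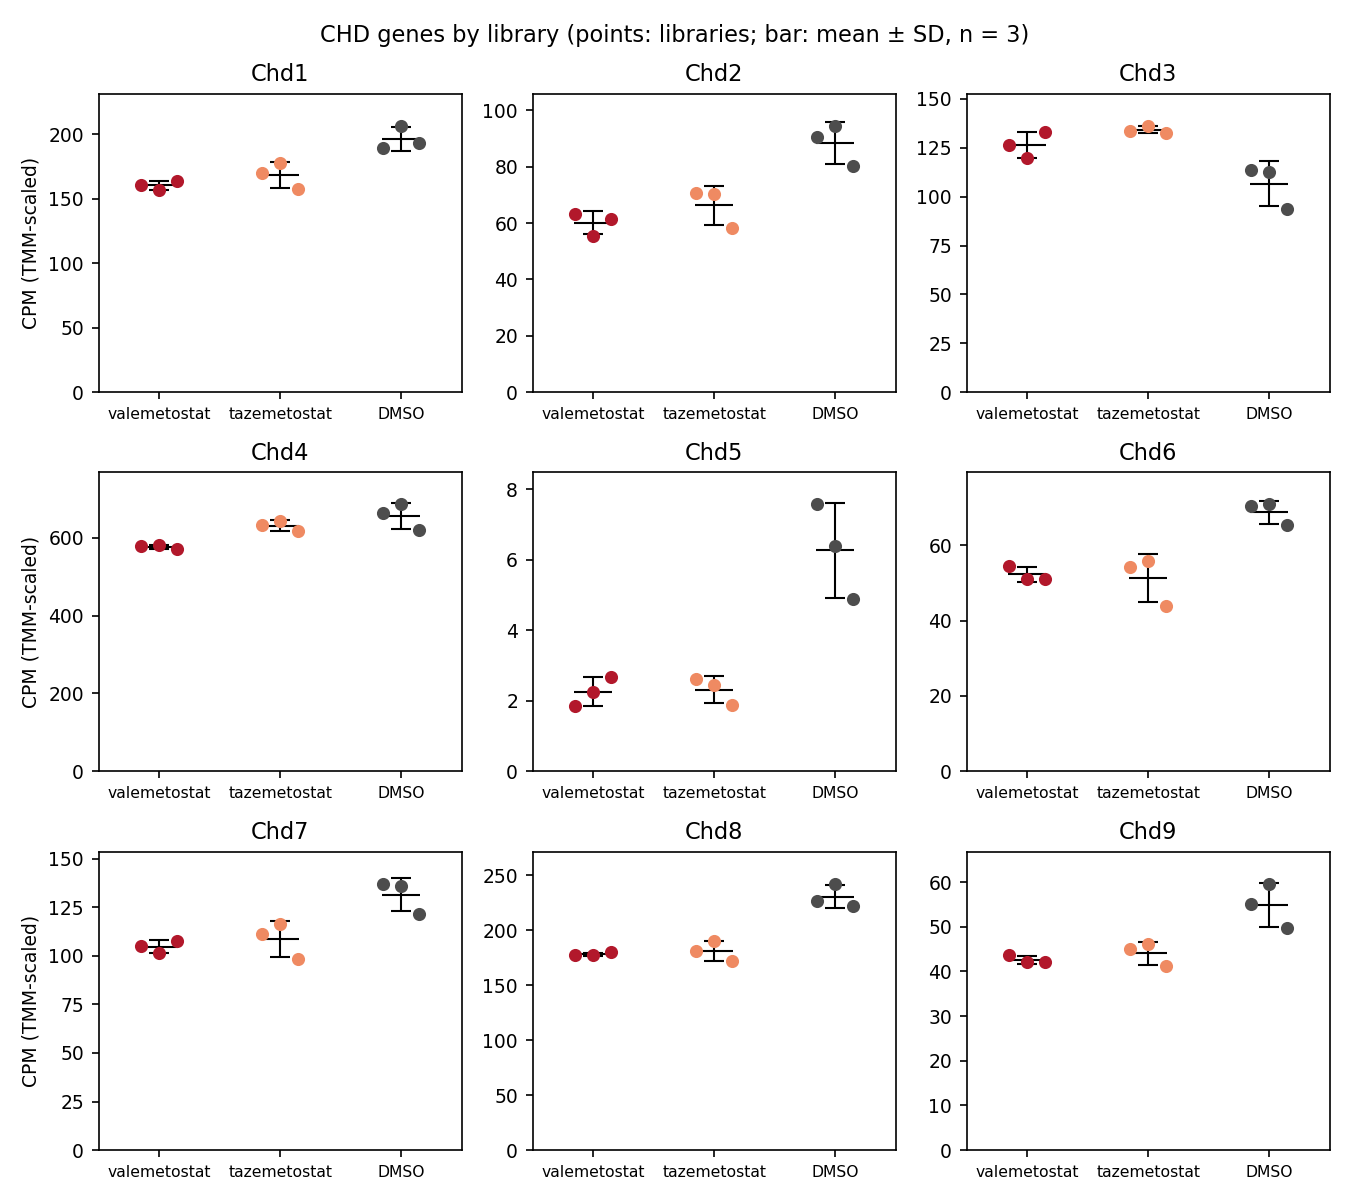
CPM (TMM-scaled, linear axes from 0) of each CHD gene in the 9 libraries; points are libraries and bars are the mean ± SD of 3. Chd3 is the member whose inhibitor libraries all lie above DMSO, with 119.7 to 136 CPM against 93.5 to 114 CPM.

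Chd5 was the least abundant and the most changed member. It had 72, 78 and 99 counts with valemetostat, 120, 105 and 67 with tazemetostat and 359, 220 and 174 in DMSO. As CPM these were 1.84, 2.26 and 2.68 with valemetostat, 2.61, 2.45 and 1.88 with tazemetostat and 7.57, 6.38 and 4.88 in DMSO. Every inhibitor library lay below every DMSO library in the counts. The DMSO libraries themselves spanned 4.88 to 7.57 CPM, a wider spread relative to the mean than for any other member. The fitted log2 fold changes, given as a description of the values that chose the family, were -1.48 with valemetostat and -1.44 with tazemetostat, which correspond to 0.359 and 0.369 times the DMSO level.

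The deposited TPM table gave another picture of Chd5 in 1 library. Its TPM were 0.28, 0.32 and 2.57 with valemetostat, 0.36, 0.39 and 0.25 with tazemetostat and 1.06, 0.92 and 0.76 in DMSO. Valemetostat replicate 3 was thus the highest of the 9 libraries in TPM, although its 99 counts lay below any DMSO library. In 8 libraries 1 CPM of the library total corresponded to 0.135 to 0.160 TPM for Chd5, and in valemetostat replicate 3 to 0.956 TPM, which is 6.80-fold above the median of the other libraries after centring each library. The same measure moved by at most 1.39-fold in any library for the other 8 members, and a deviation past 4-fold in some library was found for 120 of 12203 genes (0.983%). On log2(TPM + 1) values the Chd5 difference was -0.07 with valemetostat and -0.52 with tazemetostat, on a scale that understates changes of low genes. GENCODE M21 lists 5 Chd5 transcripts of 280 to 9486 nt, and the TPM of a gene depends on which transcript its reads are assigned to. The sources used here do not describe that assignment, and its part in the value was not tested.

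**Figure D2:**
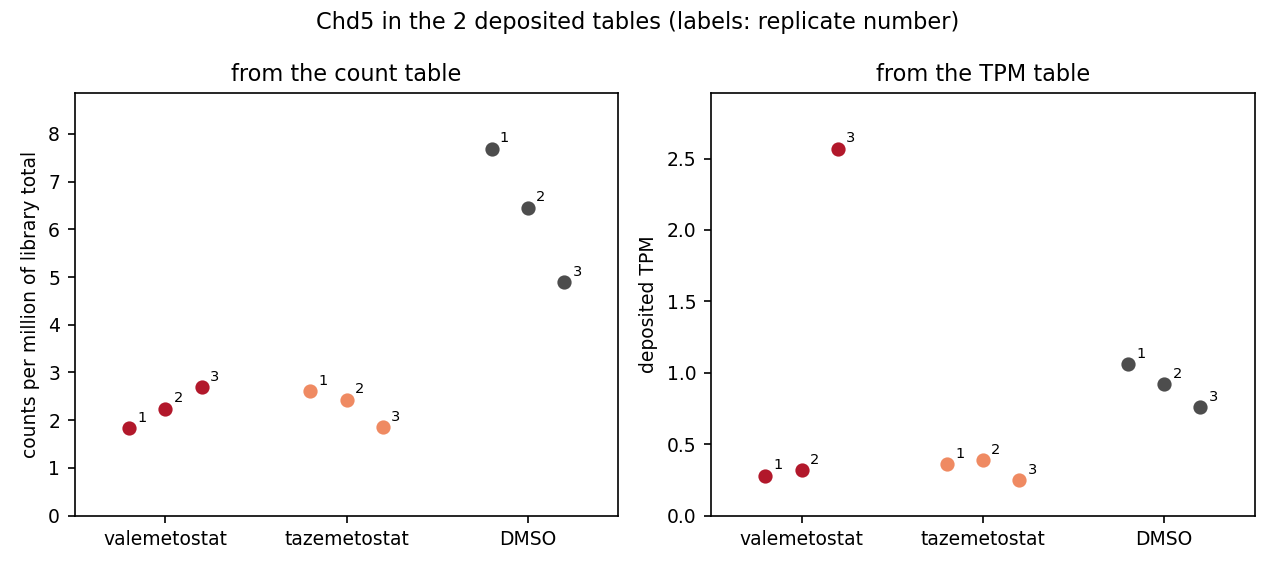
Chd5 in the 9 libraries as CPM of the library total (left) and as deposited TPM (right), with replicate numbers beside the points. Valemetostat replicate 3 lies with the inhibitor libraries at 2.69 CPM but above all others at 2.57 TPM.

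RefSeq promoter windows (GRCm38.p6, 250 bases before to 50 after a start) were found for 5 of the 9 members, Chd4, Chd5, Chd6, Chd8 and Chd9. Those of Chd5 and Chd8 are shown because Chd5 had the lowest level and the largest fall and Chd8 was, in TPM, the most abundant member called lower with both inhibitors. CpG steps (the letters CG, which read the same on both strands) are in capitals, and the windows are chr4:152338401-152338700 on the plus strand and chr14:52257711-52258010 on the minus strand.
Chd5: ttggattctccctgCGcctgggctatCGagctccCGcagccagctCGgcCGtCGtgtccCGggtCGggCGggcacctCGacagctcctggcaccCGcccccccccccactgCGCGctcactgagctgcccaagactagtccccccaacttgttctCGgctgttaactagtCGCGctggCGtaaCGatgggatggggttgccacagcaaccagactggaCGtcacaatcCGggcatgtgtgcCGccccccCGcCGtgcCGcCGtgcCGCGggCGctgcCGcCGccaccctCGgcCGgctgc
Chd8: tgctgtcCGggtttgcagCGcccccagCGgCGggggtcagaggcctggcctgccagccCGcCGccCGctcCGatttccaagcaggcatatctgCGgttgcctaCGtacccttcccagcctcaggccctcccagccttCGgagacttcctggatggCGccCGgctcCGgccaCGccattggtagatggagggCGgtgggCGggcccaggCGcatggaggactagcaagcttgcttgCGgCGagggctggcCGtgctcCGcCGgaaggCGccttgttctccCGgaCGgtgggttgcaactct
The Chd5 window shown is the first of 2 that RefSeq starts give, and the other is shifted by 3 bases and holds 33 CpG steps. It holds 32 CpG steps, a number reached by 9.52% of 32851 RefSeq windows, whose median is 7. The Chd8 window holds 26, reached by 16.9% of them. Of the other members, Chd4 has windows with 17 and 29 CpG steps, Chd6 a window with 20 and Chd9 windows with 19 and 1. These are descriptions of the letters, and no methylation or binding was measured in these files.

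Of the other NuRD ATPases, Chd3 was higher with both inhibitors and Chd4 was slightly lower with valemetostat. Chd3 had 126, 119.7 and 133 CPM with valemetostat, 134, 136 and 133 CPM with tazemetostat and 114, 112 and 93.5 CPM in DMSO. All 6 inhibitor libraries lay above all DMSO libraries. The log2 fold changes of Chd3 were 0.25 ± 0.06 with valemetostat and 0.33 ± 0.06 with tazemetostat (SE), with edgeR adjusted p = 0.00225 and 0.000118. Without DMSO replicate 3, its lowest library, the rise was smaller, at 0.16 and 0.25 (edgeR adjusted p = 0.0152 and 0.000641). This rise was not found in the TPM table: on log2(TPM + 1) values the difference was -0.01 with valemetostat and 0.14 with tazemetostat (limma-trend adjusted p = 0.953 and 0.302). Chd4 had 578, 582 and 571 CPM with valemetostat, 632, 644 and 618 CPM with tazemetostat and 664, 686 and 619 CPM in DMSO. It fell with valemetostat, by 0.19 ± 0.04 on the log2 scale (adjusted p = 0.00123). Its log2 fold change with tazemetostat was -0.06 ± 0.04 (adjusted p = 0.33), with a 95% interval of -0.15 to 0.03, and those libraries overlapped.

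Of the Chd1 and Chd2 subfamily, Chd2 changed more. Chd2, whose human counterpart is a gene of childhood epilepsy, had 63.3, 55.6 and 61.4 CPM with valemetostat, 70.6, 70.2 and 58.3 CPM with tazemetostat and 90.5, 94.6 and 80.1 CPM in DMSO. Every inhibitor library of Chd2 lay below every DMSO library, while the libraries of the inhibitors overlapped each other. The log2 fold changes against DMSO were -0.56 ± 0.07 and -0.41 ± 0.07 (adjusted p = 4.72e-06 and 0.00015). Chd1, whose human counterpart binds H3K4-methylated histone tails, had 161, 156 and 163 CPM with valemetostat, 170.3, 177 and 157 CPM with tazemetostat and 189, 207 and 193 CPM in DMSO. Its log2 fold changes were -0.29 ± 0.05 and -0.22 ± 0.05 (adjusted p = 3.42e-05 and 0.000814).

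The 4 genes of the Chd6 to Chd9 subfamily fell by similar amounts. Chd8, a regulator of Wnt target genes and an autism gene in humans, had 177, 177 and 179.6 CPM with valemetostat, 181, 189.9 and 172 CPM with tazemetostat and 227, 242 and 222 CPM in DMSO. Its log2 fold changes were -0.37 ± 0.05 and -0.35 ± 0.05 (adjusted p = 5.28e-07 and 1.41e-06), with the smallest p of the 8 members in both comparisons. Chd6 had 54.6, 51.1 and 51.0 CPM with valemetostat, 54.2, 55.9 and 43.9 CPM with tazemetostat and 70.3, 70.8 and 65.3 CPM in DMSO. Tazemetostat replicate 3 was the lowest library for Chd6, and the log2 fold changes were -0.40 ± 0.07 and -0.42 ± 0.07 (adjusted p = 8.99e-05 and 4.4e-05). Chd7, which is mutated in human CHARGE syndrome, had 105, 101 and 108 CPM with valemetostat, 111, 116 and 98.6 CPM with tazemetostat and 137, 136 and 122 CPM in DMSO, with log2 fold changes of -0.33 ± 0.06 and -0.27 ± 0.06 (adjusted p = 6.73e-05 and 0.000559). Chd9 had 43.7, 42.2 and 42.0 CPM with valemetostat, 45.0, 46.1 and 41.2 CPM with tazemetostat and 55.1, 59.7 and 49.8 CPM in DMSO, with log2 fold changes of -0.36 ± 0.07 and -0.31 ± 0.07 (adjusted p = 0.000119 and 0.000598). For each of these 4 genes every inhibitor library lay below every DMSO library.

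CHD transcripts are long, and fold changes against DMSO moved with transcript length in these libraries. The longest GENCODE M21 transcript of a member runs from 6697 nt (Chd4) to 12008 nt (Chd9), against a median of 3240.5 nt over tested genes. Among the 1200 tested genes with a longest transcript of at least 6697 nt, the median log2 fold change was -0.17 with valemetostat and -0.13 with tazemetostat, and 47.4% and 41.2% were called lower. Spearman's rho between transcript length and a library's deviation from the mean of all libraries, across 8948 genes that share each library's composition, was -0.454 to -0.236 with valemetostat, -0.441 to -0.012 with tazemetostat and 0.208 to 0.48 in DMSO. The mean deviation of the 8 members other than Chd5 was -0.153 to -0.091 with valemetostat, -0.157 to 0.023 with tazemetostat and 0.065 to 0.242 in DMSO on the log2 scale. Tazemetostat replicate 3 had both the lowest rho and the lowest member mean of its group.

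With an offset for transcript length and GC content, fitted per library over all genes, the same members changed less. The median of the 8 went to -0.14 with valemetostat and -0.12 with tazemetostat. Chd1, Chd2, Chd6, Chd7 and Chd8 still fell in both comparisons, against 19.5% and 19.2% of genes called lower with the offset. Chd2 stood at -0.38 ± 0.05 and -0.28 ± 0.05, Chd6 at -0.19 ± 0.05 and -0.26 ± 0.05, Chd8 at -0.21 ± 0.04 and -0.22 ± 0.04, Chd1 at -0.15 ± 0.04 and -0.11 ± 0.04 and Chd7 at -0.13 ± 0.04 and -0.11 ± 0.04 on the log2 scale. Chd9 was no longer called, at -0.13 ± 0.05 in both (adjusted p = 0.0624 and 0.0603), nor was Chd4 with valemetostat, at -0.07 ± 0.03 (adjusted p = 0.111). Chd4 with tazemetostat was at 0.04 ± 0.03 (adjusted p = 0.334). Chd3 rose further, to 0.40 ± 0.04 and 0.47 ± 0.04, against 19.2% and 19.3% of genes called higher with the offset. Chd5 was at -1.25 in both, but its level lies under that cut, so its offset rests on more abundant genes. Because the length trend differs between the groups, the offset also removes any difference between treatments that follows length.

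**Figure D3:**
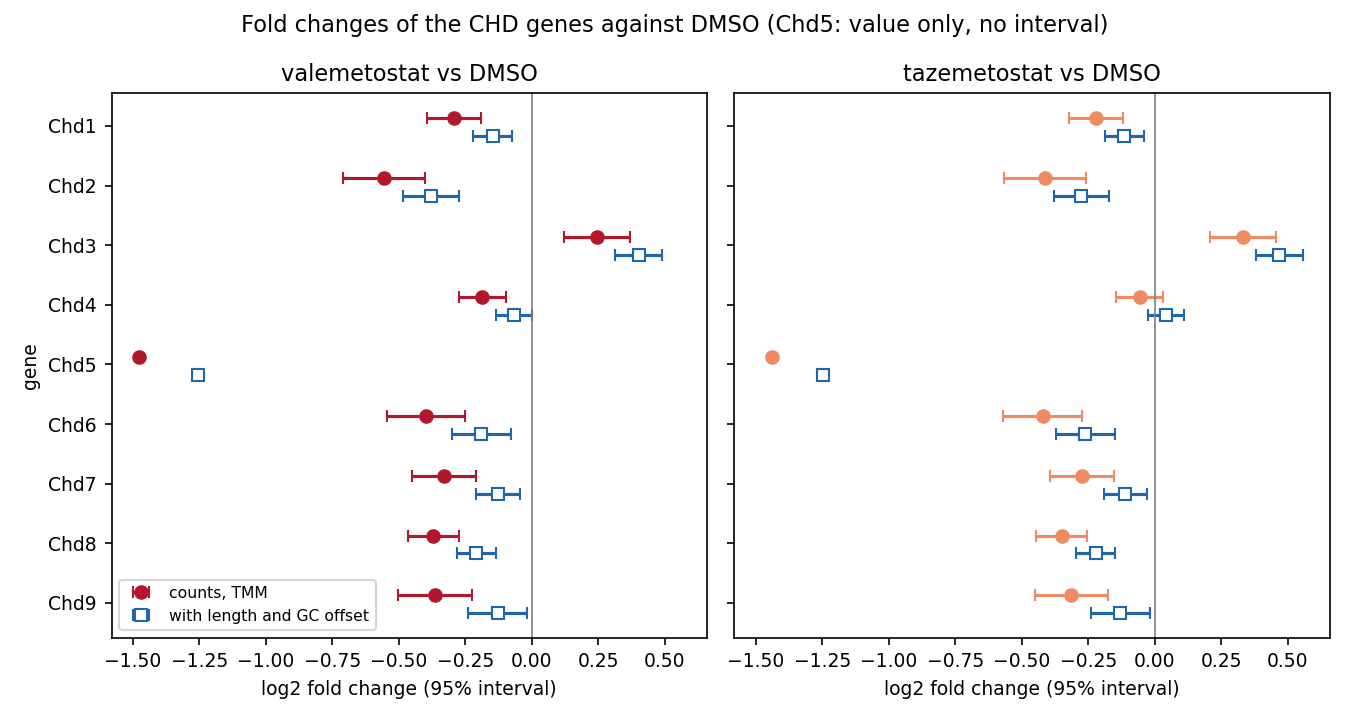
Log2 fold changes for the 9 genes against DMSO, with 95% intervals for all but Chd5, which was not tested, from counts with TMM scaling (filled circles) and with the length and GC offset (open squares). The offset takes the median of the 8 members other than Chd5 to -0.14 with valemetostat and -0.12 with tazemetostat, and leaves Chd3 on the higher side.

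**Figure D4:**
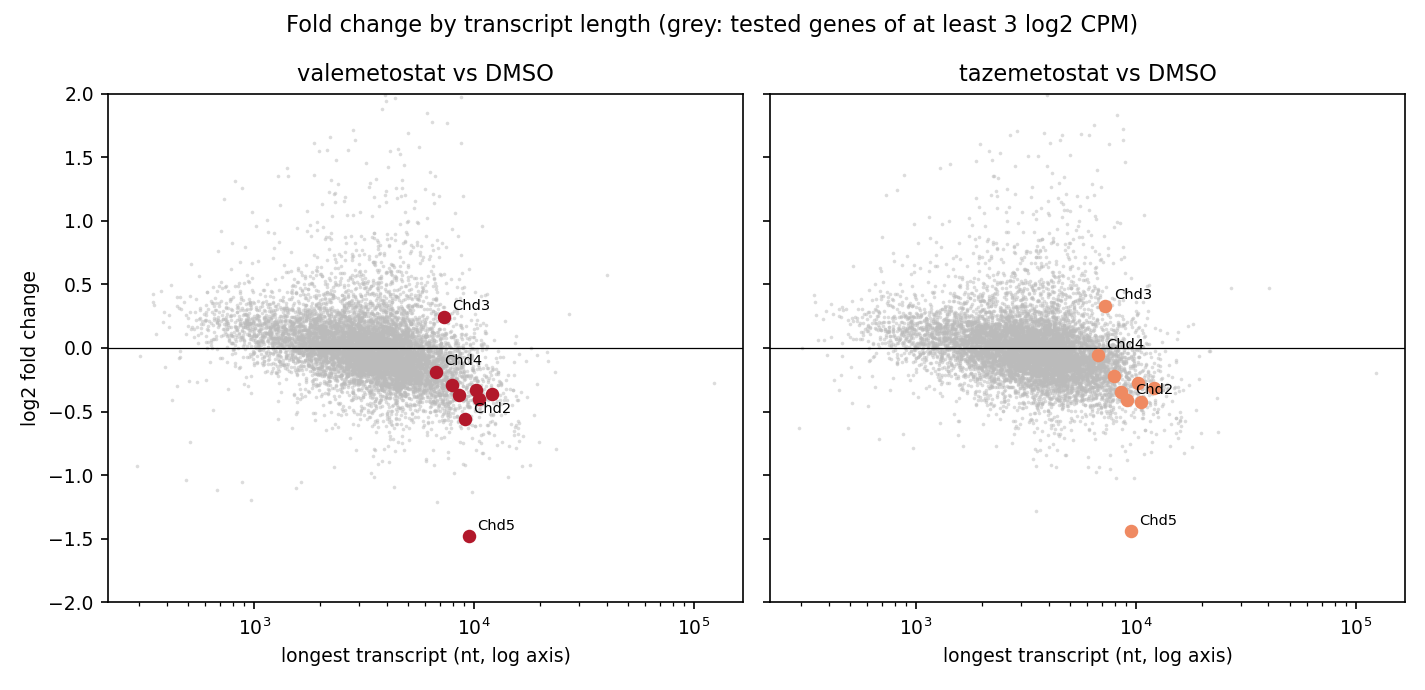
Log2 fold change against DMSO by longest transcript (log axis) for tested genes of at least 3 log2 CPM (grey) and for the CHD genes (coloured, Chd2 to Chd5 named); genes past 2 on either side are not drawn. Tested genes of at least 6697 nt have a median of -0.17 with valemetostat and -0.13 with tazemetostat. Chd3 lies above that median and Chd5 below it. Chd5 is less abundant than the grey genes, at 1.84 to 7.57 CPM, so genes of its level are not drawn.

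On the deposited log2(TPM + 1) values fewer members passed. With valemetostat 4 of 8 fell (Chd2, Chd4, Chd6 and Chd8) and 0 rose, against 16.8% of genes called lower and 9.47% higher there, and with tazemetostat 2 fell (Chd2 and Chd8) and 0 rose, against 15.5% and 9.36%. Chd8 showed larger differences in that table than in the counts, -0.55 and -0.54 (limma-trend adjusted p = 0.00132 and 0.00172). Chd2 was at -0.50 and -0.47 (adjusted p = 0.0175 and 0.0238). These 2 genes were called lower with both inhibitors in counts, with the offset and in TPM.

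Set directly against each other, valemetostat and tazemetostat gave no called difference by edgeR for any of the 8 members other than Chd5. Of these, 1 had an unadjusted p under 0.05, and 0 were called by DESeq2. Over all genes 0.254% were called lower and 0.0636% higher with valemetostat than with tazemetostat (0.318% in either direction). With the length and GC offset 0 of these 8 members were called, against 0.485% of genes lower and 0.151% higher. On log2(TPM + 1) values 0 of the 8 were called, against 0.00795% lower and 0% higher. The member with the unadjusted p under 0.05 was Chd4, at -0.13 on the log2 scale with valemetostat relative to tazemetostat (95% interval -0.22 to -0.04, edgeR adjusted p = 0.343). Chd4 was also the 1 member whose valemetostat and tazemetostat libraries did not overlap, and it was the lower with valemetostat, against 7.12% of genes not overlapping on the lower side and 6.97% on the higher side. The adjusted p of Chd4 ran from 0.112 to 0.876 over the alternatives. Chd5 was selected for lower values with both inhibitors, so its value here is a description. It was at -0.04 with a 95% interval of -0.49 to 0.40, so differences of that size remain possible. For Chd1, Chd3, Chd6, Chd7, Chd8 and Chd9 the intervals reached no further than -0.21 and 0.17, and for Chd2 the interval was -0.30 to 0.01. With no dose in the sources used here, the compounds are compared as labelled and not at a known matched dose.

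Most partners of the NuRD ATPases did not pass the test. Of 12 NuRD subunits other than the CHD genes, 2 rose and 2 fell with valemetostat and 2 rose and 1 fell with tazemetostat, with a median log2 fold change of 0.00 and 0.01. That is no larger a share than over all genes, of which 39.2% were called with valemetostat and 38.1% with tazemetostat. Hdac2, a deacetylase subunit, averaged 192 ± 6.48 CPM with valemetostat, 199 ± 0.980 CPM with tazemetostat and 141 ± 4.33 CPM in DMSO (SD, n = 3 each), log2 fold changes of 0.45 ± 0.04 and 0.50 ± 0.04 (edgeR adjusted p = 8.95e-09 and 1.27e-09). Its paralog Hdac1 was at 0.03 ± 0.05 and 0.06 ± 0.05 and did not pass. Among the MTA scaffold subunits, Mta1 fell by 0.27 ± 0.04 and by 0.14 ± 0.04 and Mta3 rose by 0.21 ± 0.06 and 0.22 ± 0.06, while Mta2 was at 0.00 ± 0.04 and 0.02 ± 0.04 and did not pass. Gatad2b, which bridges the subunits of the complex, fell by 0.26 ± 0.07 with valemetostat and was at -0.10 ± 0.06 with tazemetostat, which did not pass. The methyl-binding subunits Mbd2 and Mbd3 and the histone chaperones Rbbp4 and Rbbp7 did not pass in either comparison. Of the 3 ChAHP partners of Chd4 (Adnp, Cbx1 and Cbx3), Cbx3, a heterochromatin protein gene, rose by 0.18 ± 0.04 with tazemetostat, and none passed with valemetostat.

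Genes of other ATP-dependent remodellers were also read beside the CHD genes. Of 9 partners in ISWI complexes (remodellers that space nucleosomes) 8 fell with valemetostat and 7 with tazemetostat, with 0 higher and medians of -0.28 and -0.22. Over all genes 18.7% and 18.2% were called lower, and among genes at least as long as Chd4 47.4% and 41.2%. Bptf, the large subunit of the NURF complex, fell by 0.57 ± 0.08 and by 0.48 ± 0.08, Baz1b by 0.41 ± 0.05 and by 0.36 ± 0.05, Baz2b by 0.35 ± 0.05 and by 0.32 ± 0.05 and Baz1a by 0.28 ± 0.05 and by 0.22 ± 0.05. Of 22 tested SNF2-family ATPases outside the CHD group 13 fell and 2 rose with valemetostat, and 14 fell and 2 rose with tazemetostat, with medians of -0.20 and -0.22, beside the same shares called lower and 20.5% and 19.9% of all genes called higher. Btaf1, which removes TBP from DNA, fell by 0.44 ± 0.06 and by 0.45 ± 0.06, Rad54l2 by 0.44 ± 0.06 and by 0.36 ± 0.06, Hells, a helicase needed for DNA methylation, by 0.24 ± 0.04 and by 0.27 ± 0.04 and Atrx, which helps to deposit histone H3.3, by 0.26 ± 0.05 and by 0.27 ± 0.05. Chd1l, a relative without chromodomains that was singled out after its values were seen, rose by 0.17 ± 0.06 with each. The median longest transcript was 7895 nt in the ISWI list, 5900 nt among these ATPases and 2980.5 nt in the NuRD list. The offset for length and GC content was added for the lists after seeing the data. With it 6 ISWI partners with valemetostat and 5 with tazemetostat were called lower, at medians of -0.19 and -0.16, with 0 higher. Of the ATPases 10 and 12 were called lower and 2 higher with each, at medians of -0.11 and -0.14. Of the NuRD subunits 3 and 2 were called lower and 2 higher with each, and of the ChAHP partners 1 was called lower with each and 1 higher with tazemetostat. Over all genes with the offset 19.5% and 19.2% were called lower and 19.2% and 19.3% higher.

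**Figure D5:**
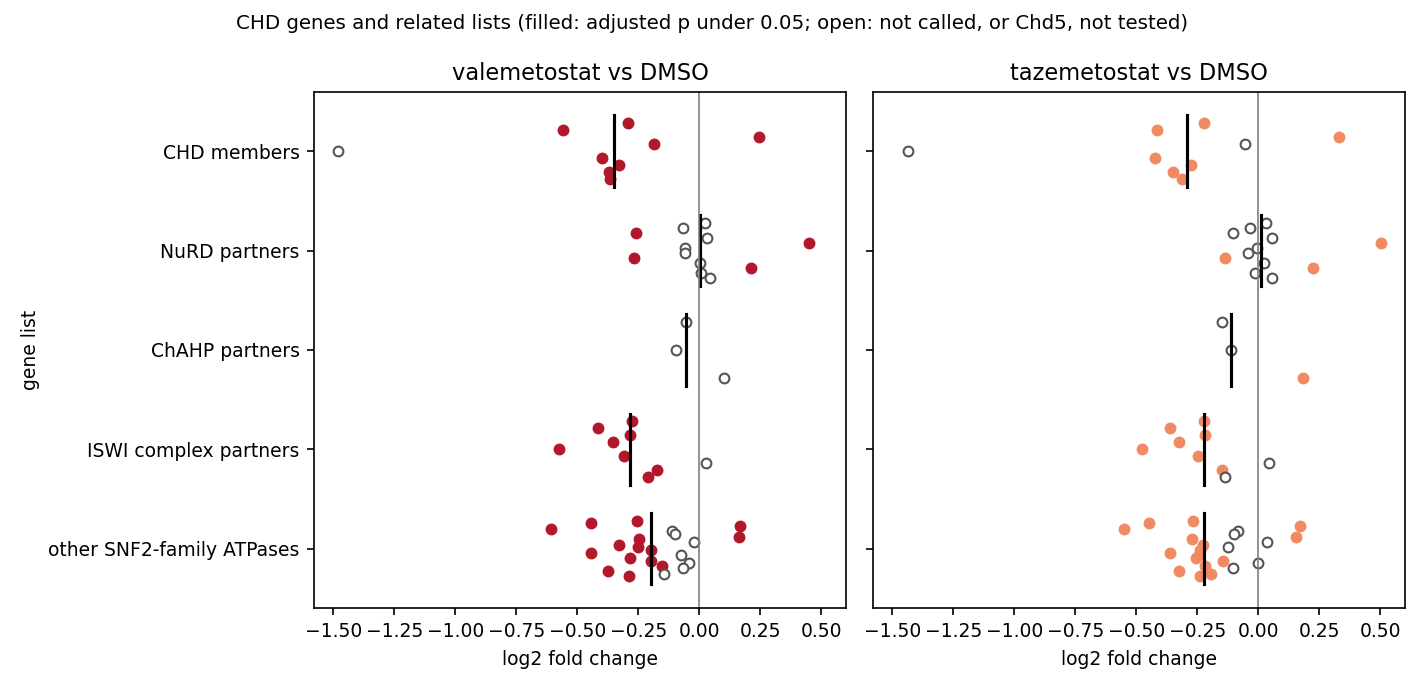
Log2 fold changes against DMSO of the CHD genes and of 4 related lists; filled points were called at an adjusted p under 0.05, open points were not called or are Chd5, which was not tested, and black bars are medians (without Chd5 for the CHD genes). The NuRD partners centre near 0.00, and the ISWI partners and other ATPases lie lower, at -0.28 and -0.20 with valemetostat.

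Around Chd5 on chromosome 4, 1 of 6 neighbouring genes was called lower with both inhibitors and 2 were called higher. Over all tested genes 18.7% were called lower and 20.5% higher with valemetostat, and 18.2% and 19.9% with tazemetostat. With 6 genes, these counts cannot be set apart from those shares. The 3 nearest tested genes on either side in GENCODE order were Acot7, Icmt and Rpl22, and Kcnab2, Nphp4 and A430005L14Rik. Rpl22, a ribosomal protein gene, rose by 0.22 ± 0.05 with valemetostat and 0.17 ± 0.05 with tazemetostat, and Kcnab2, a potassium channel subunit, fell by 0.14 ± 0.05 and by 0.18 ± 0.05. A430005L14Rik rose by 0.36 ± 0.08 and 0.38 ± 0.08. Acot7, Icmt and Nphp4 lay between -0.03 and 0.04 in both comparisons and did not pass.

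The 5 genes whose profile over the 9 libraries was nearest to that of Chd5, by the root-mean-square difference of log2 CPM after centring on the DMSO mean, were Col11a2 (0.171), Gnaz (0.302), Uevld (0.308), Lilrb4a (0.324) and Ptprv (0.334), out of 10979 genes compared. Col11a2, a fibrillar collagen gene, averaged 1.84 ± 0.316 CPM with valemetostat, 2.22 ± 0.0400 CPM with tazemetostat and 5.73 ± 1.33 CPM in DMSO (SD, n = 3 each). Gnaz, a G protein alpha subunit, averaged 25.5 ± 1.89 CPM with valemetostat, 21.1 ± 3.85 CPM with tazemetostat and 51.5 ± 3.77 CPM in DMSO. The log2 fold changes were -1.69 and -1.37 for Uevld, -1.44 and -1.77 for Lilrb4a and -1.66 and -1.18 for Ptprv with valemetostat and tazemetostat. Lilrb4a has a close paralog, so its counts are uncertain. These genes were found by their likeness to Chd5, and their falls are not evidence of anything beyond that.

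Because Chd5 is known from neurons and male germ cells, markers of both were read beside it. Of 12 neuronal markers 3 were tested and 7, Snap25, Nefl, Nefm, Stmn2, Gap43, Elavl4 and Dcx, had 0 counts in all 9 libraries. Syp, a synaptic vesicle gene, averaged 3.20 CPM with valemetostat, 3.41 CPM with tazemetostat and 0.869 CPM in DMSO, and rose by 1.87 ± 0.29 and 1.96 ± 0.28 on the log2 scale, while Tubb3 and Eno2 did not pass. The neuronal sum was 18.9 to 23.8 TPM with valemetostat, 23.3 to 25.1 TPM with tazemetostat and 19.4 to 28.3 TPM in DMSO, and these ranges overlapped. None of the 10 testis germ cell markers passed the filter, and their sum was 0.27 to 1.19 TPM with valemetostat, 0.48 to 0.91 TPM with tazemetostat and 0 to 0.67 TPM in DMSO.

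Some reads of members could belong to overlapping genes, since the sources used here do not say whether strand was used. On the opposite strand, GENCODE M21 lists Gm13645 over Chd5, Gm44686 over Chd2, Gm26590 over Chd8 and Gm45641 over Chd9. On the same strand it lists 1810026B05Rik over Chd2. These genes are not among the identifiers of the count table, so reads from them could not be told apart here. Of overlapping genes with counts, Gm6658 over Chd9 had the most reads, with 124 counts in the 9 libraries against 16687 for Chd9.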

How the data were processed

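Poly(A) RNA of 9 libraries was read as 150-nt pairs, per the labels' protocols. The authors deposited whole-number counts per gene and a table of log2(TPM + 1) values, from which TPM were recovered as whole hundredths in 100% of values (tolerance 1e-04). The genome build named in the submitters' processing notes was mm9, with no role stated. Not given in the sources used here: aligner, counter, annotation and strand setting. GENCODE M21 and RefSeq, on another build, gave transcript lengths, GC content, gene order and promoter windows.

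Counts were tested with edgeR 4.0.16 in R 4.3.3 (TMM, filterByExpr with a minimum count of 10 and total of 15, robust quasi-likelihood F test, 9 libraries in 1 fit with 3 groups). A call is an adjusted p (Benjamini-Hochberg over 12580 genes) under 0.05. Fold changes carry standard errors, from the log2 fold change and its F statistic, and 95% intervals. Intervals on counts cover counting error and the spread of these libraries. No replicate pair agreed within sampling noise (chi-square per degree of freedom 5.26 to 13.3). The procedure was tested on simulated data. These were drawn without a trend by transcript length or GC content, so they say nothing about calls that such a trend affects. Alternatives used DESeq2 1.42.0, limma-trend (limma 3.58.1) on log2(TPM + 1), other scalings and filters, the replicate number as a term, the compared groups alone, an offset from splines (5 degrees of freedom each) on longest transcript length and GC content over genes of at least 3 log2 CPM, and leaving out each library. A sum of TPM over members or markers has no test.

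The members and lists were chosen with earlier results of these data known. Genes named beside the members are, per chromatin list and comparison, up to 4 called genes with the smallest p, the 5 genes nearest to Chd5 in profile (mean of at least 0 log2 CPM), its 3 tested neighbours on either side, and overlapping genes. Paralogs of called NuRD subunits and those that did not pass were named after their values were seen.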

Additional observations from a re-analysis of the deposited data

How the results depend on the processing

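Of the log2 fold changes of members recomputed under each alternative, 413 kept their side of the threshold (for Chd5 against DMSO, moved by less than its standard error), 14 lost the call with the same sign, 4 values of Chd5 moved by more than that, and 1 called value changed sign, Chd3 with valemetostat on log2(TPM + 1) values at -0.0089. Values that were not called also changed sign, Chd4 with tazemetostat against DMSO under 2 settings (0.04 with the length and GC offset, with and without the block), and 14 values between the inhibitors, of Chd5, Chd6, Chd7, Chd8 and Chd9. Members called lower were 4 with valemetostat and 2 with tazemetostat on log2(TPM + 1) values, and members called higher were 0 and 0. All genes called higher there were 1191 and 1177, against 2577 and 2508 in counts. The cause was not tested. Without any 1 library the members called were unchanged in number, with 7 lower and 1 higher with valemetostat and 6 lower and 1 higher with tazemetostat.

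Between valemetostat and tazemetostat, 32 genes were called lower and 8 higher, and these counts moved with the settings. Lower and higher counts were 57 and 13 with DESeq2, 72 and 21 with no filter, 61 and 19 with the length and GC offset and 1 and 0 on log2(TPM + 1) values, with 20 lower for library totals. Leaving out 1 library gave 7 lower (without valemetostat replicate 2) to 61 (without tazemetostat replicate 3), and 2 to 12 higher, and every left-out library but valemetostat replicate 3 moved the lower count by over 1.5 times. With the replicate number as a block, 25 lower and 7 higher genes were called between the inhibitors, 2243 and 2470 with valemetostat against DMSO and 2143 and 2384 with tazemetostat against DMSO, and no member changed its call. Correlations between the deviations of same-numbered libraries ran from -0.22 to 0.24 over 9 pairs, against -0.33 to 0.28 over 18 others. The deviations were centred within groups of 3 libraries and are not independent, so they cannot decide whether the numbers pair libraries. The labels do not say. With 67 to 120 counts per inhibitor library, Chd5 has the widest interval of the family between the inhibitors.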

Other observations

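The disagreement between the count and TPM tables for Chd5 in valemetostat replicate 3 is uncommon but not alone. After centring each library, 516 of 12203 genes with counts and TPM in all libraries (4.23%) had a library whose TPM per CPM lay over 2-fold from the median of the others, and 41 lay at least as far as Chd5 did. Among the CHD genes the next largest deviations were 1.39-fold for Chd6 in DMSO replicate 1 and 1.38-fold for Chd9 in tazemetostat replicate 3. For Chd3 the largest was 1.22-fold, in valemetostat replicate 3, where its TPM per CPM was 0.821 times that of the other libraries.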
